A study of Mus musculus with 5 samples.

Results

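Described here are 41 mouse genes for the plasma proteins of complement and blood clotting and for their cofactors, 18 of complement and 23 of coagulation, chosen by name, with earlier results of these data known. Serpins and the complement genes of macrophages were left out of the choice, and complement genes of macrophages are given near the end. Of the 41 genes, 35 had a transcript row of their own on the array, 14 of complement and 21 of coagulation, among 18820 genes with such a row. The rows of *Masp2*, *C4b* and *Klkb1* carry a second gene name as well (*Tardbp*, *C4a* and *Cyp4v3*), so these genes get no value, and no row lists *C3*, *Cfd* or *Cpb2* here.

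Liver RNA came from adult C57BL/6 mice injected under the skin once a day for 4 days and killed on day 5. Control animals received phosphate-buffered saline (PBS, 2 mice), and treated animals received CSF1-Fc at 1 mg/kg (3 mice). CSF1-Fc is a fusion of the active fragment of pig CSF1, the growth factor of macrophages, with the hinge and constant domains of a pig IgG1a antibody. Each liver was run on 1 Affymetrix Mouse Gene 1.1 ST array, and the values are log2 of the deposited normalized intensities. The sex of these mice is not in the labels, the tissue is whole liver, and no group received the antibody part alone.

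Complement is a cascade of plasma proteases that tags microbes and cell debris for uptake. It is started by antibody (classical pathway), by lectins that bind sugars (lectin pathway) or by its own slow turnover (alternative pathway), and it ends in a pore, the membrane attack complex. Coagulation is a parallel protease cascade that runs from tissue factor or the contact system to thrombin, which turns fibrinogen into fibrin. Hepatocytes make most of the circulating factors of both systems, while tissue factor, thrombomodulin, the endothelial protein C receptor and the tissue factor pathway inhibitor sit mainly on other cells, and macrophages are a known source of the factor XIII A subunit.

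The question was whether CSF1-Fc treatment altered the transcripts of these liver products. At a limma adjusted p under 0.05, 2 of the 35 genes rose (*F13a1* and *Tfpi*), 2 fell (*Mbl1* and *C2*) and 31 did not pass. Across all 18820 genes, 8.34% rose and 3.95% fell. The median log2 fold change (CSF1-Fc over PBS) was -0.42 over the 35 genes and -0.08 over all genes. Fold changes lay below 0 for 30 of the 35, and for 61.9% of all genes. For 23 of the 35 genes no treated liver reached either control (29.3% of all genes were of that kind), and for 4 every treated liver exceeded both controls (18.2% of all genes). At an unadjusted limma p under 0.05, 17 of the 35 were lower and 4 higher, beside 14.5% and 13.2% of all genes. The number that fell depended on the fit: it was 9 when only rows with 1 gene symbol were tested, 11 with the mean over a gene's rows and 15 with array weights. The counts also rest on few mice: 0 of the 35 rose and 0 fell without either PBS replicate or without CSF1-Fc replicate 1, and 2 rose and 7 fell without CSF1-Fc replicate 3. In whole liver RNA, fewer cells of a type and less RNA per cell cannot be told apart.

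**Figure D1:**
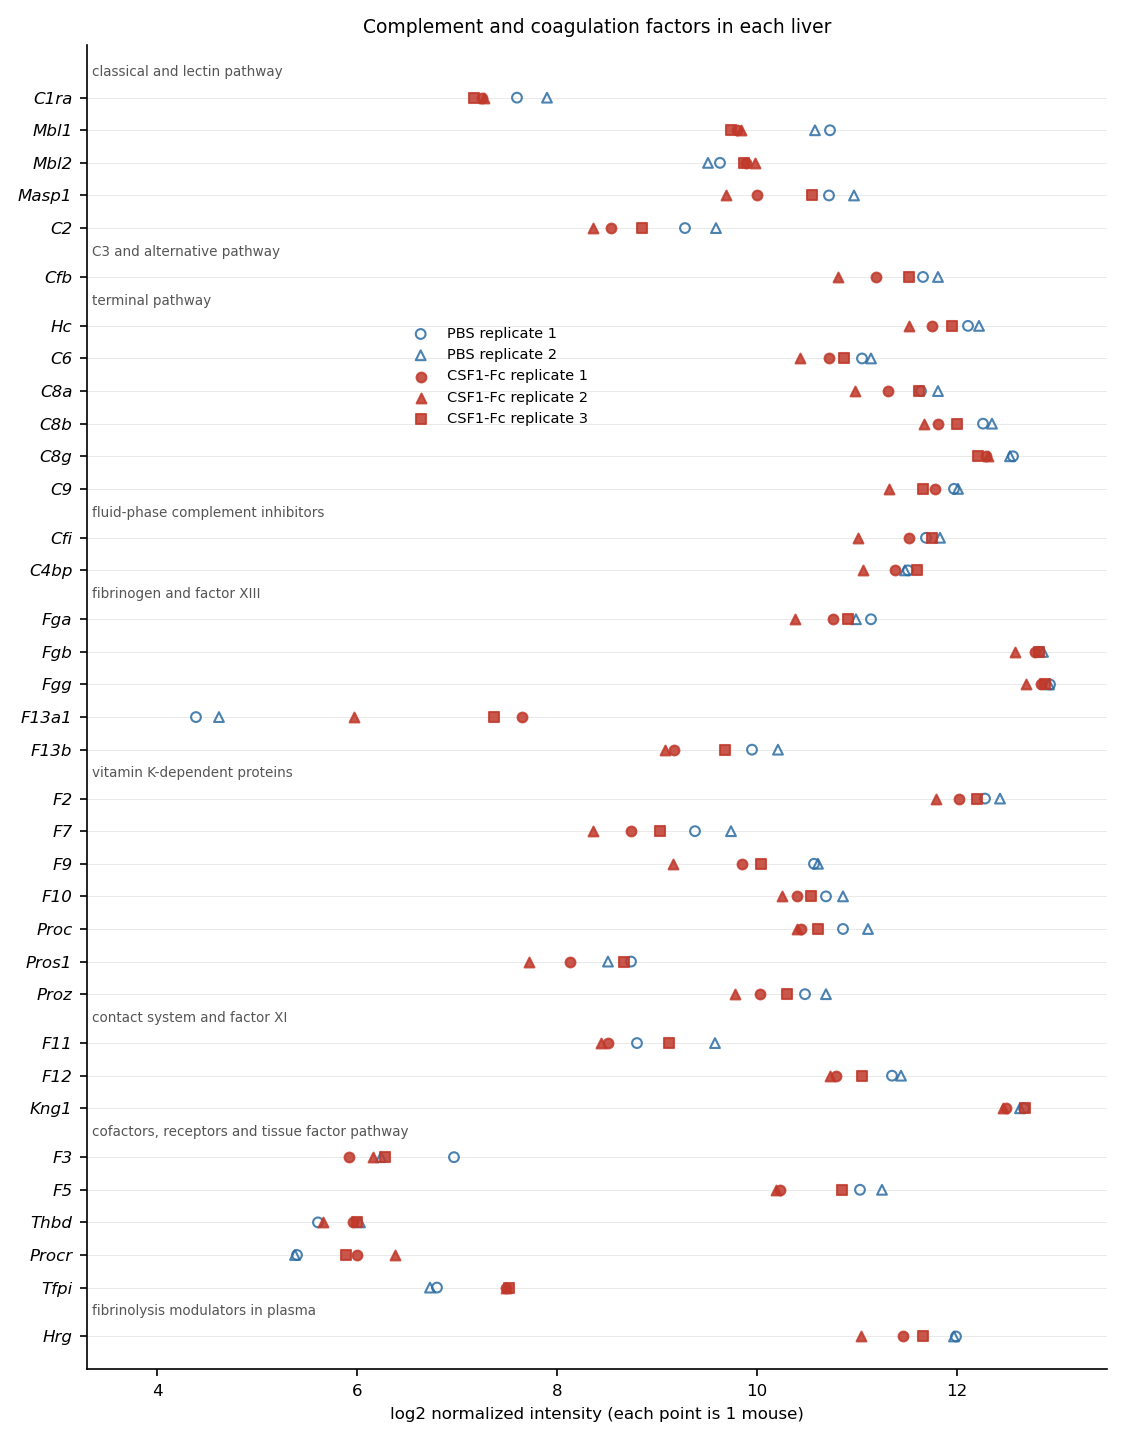
Log2 normalized intensity (horizontal axis) of the 35 measured complement and coagulation genes in each of the 5 livers, grouped by role, with open blue symbols for PBS and filled red symbols for CSF1-Fc. All 3 CSF1-Fc livers lie to the left of both PBS livers for 23 genes and to the right for 4.

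Liver identity and the other cells in the samples were checked with marker lists. *Alb*, the albumin gene (chosen after its values were seen), stood at log2 intensities from 13.20 to 13.28 in every liver. Of 12 hepatocyte markers, 0 rose and 2 fell (*Asgr2*, log2 fold change -0.82, and *Hpd*, -0.81), with a median of -0.44. Their summed level (log2 of the summed intensities) was 15.95 to 16.03 in PBS livers and 15.63 to 15.77 in CSF1-Fc livers. All 18 macrophage markers rose (median log2 fold change 2.49), with a summed level of 12.49 to 12.63 in PBS livers and of 14.84 to 14.90 in CSF1-Fc livers. All 6 Kupffer cell markers also rose (median 2.11), as did all 6 measured inflammatory monocyte markers (3.86) and 9 of 11 neutrophil markers (2.19). The part of these shifts in the values below was not tested. PBS replicate 1 stood apart from PBS replicate 2 for several acute phase genes (chosen after their values were seen), with log2 intensities of 12.37 and 8.80 for *Saa2*, 12.24 and 8.72 for *Orm2*, 10.86 and 7.24 for *Lcn2* and 8.64 and 5.97 for *Saa3*. Median intensity was 31.1 to 33 on the 5 arrays.

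The lectin pathway held the fall with the lowest adjusted p of the 35 genes and a value of the opposite sign. *Mbl1* and *Mbl2* encode mannose-binding lectins A and C, which bind sugars on microbes and start the pathway. The log2 intensity of *Mbl1* was 10.73 and 10.58 in the PBS controls and 9.80, 9.84 and 9.74 in the CSF1-Fc group. For *Mbl2* it was 9.63 and 9.51 with PBS and 9.89, 9.98 and 9.87 with CSF1-Fc. The groups did not overlap for either gene, and the order of the groups was opposite. *Mbl1* fell 1.82-fold (log2 fold change -0.86, standard error 0.13, limma adjusted p = 0.00962), and the value for *Mbl2* was 0.34 on that scale (standard error 0.12, adjusted p = 0.165), which did not pass. The *Mbl1* call was lost without PBS replicate 1 (adjusted p = 0.0967) or replicate 2 (0.0666), narrowly without CSF1-Fc replicate 1 (0.0514), and with the replicate number as a block (0.0582). Within an array, the log2 ratio of *Mbl1* to *Mbl2* was lower after treatment by a change of -1.20, a comparison chosen after the values were seen. An exact permutation test (two-sided) of that ratio gave p = 0.2. That is the smallest this test can give with 2 against 3 livers, so it cannot decide whether the ratio changed.

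The promoters of these genes are shown because their values had opposite signs. Each is 100 bases from the RefSeq table of promoters (GRCm38.p6), Mbl1 at chr14:41151356-41151455 and Mbl2 at chr19:30232806-30232905, both on the plus strand. Capitals mark the most alike stretch of 30 bases without gaps, in which 27 bases are identical (90%) and 3 differ.
Mbl1: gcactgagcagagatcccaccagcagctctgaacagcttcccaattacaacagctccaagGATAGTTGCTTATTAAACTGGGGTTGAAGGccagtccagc
Mbl2: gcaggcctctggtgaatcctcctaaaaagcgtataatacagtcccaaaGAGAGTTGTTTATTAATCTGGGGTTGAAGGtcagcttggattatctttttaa
The likeness is a description of these windows and says nothing of which factors bind there.

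*C2* encodes the protease that joins C4b in the C3 convertase of the classical and lectin pathways. Its log2 intensity was 9.28 and 9.59 with PBS and 8.54, 8.36 and 8.85 with CSF1-Fc, so every treated liver lay below both controls. *C2* fell 1.80-fold (log2 fold change -0.85, standard error 0.19, limma adjusted p = 0.044). The call was lost without PBS replicate 1 (adjusted p = 0.112) or replicate 2 (0.281), without CSF1-Fc replicate 1 (0.149) or replicate 2 (0.0787), and when arrays were centred on liver secreted proteins (0.0683). *Cfb*, which neighbours *C2* and encodes factor B, its counterpart in the alternative pathway, read 11.66 and 11.81 with PBS and 11.19, 10.81 and 11.52 with CSF1-Fc. Its log2 fold change of -0.57 (95% interval -1.10 to -0.03) did not pass (adjusted p = 0.189).

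Of the other starters of the classical and lectin pathways, *C1ra* encodes the C1r protease of the C1 complex. It stood at 7.60 and 7.90 in control livers and at 7.25, 7.27 and 7.17 in treated livers (log2 fold change -0.52, standard error 0.14, limma adjusted p = 0.0828). *Masp1*, for a protease bound to the lectins, was at 10.72 and 10.97 with PBS and at 10, 9.69 and 10.55 with CSF1-Fc. Its treated livers spanned 0.86 log2 units, and the fold change of -0.76 (standard error 0.26) did not pass (adjusted p = 0.142). Both genes lay lower in all treated livers than in either control.

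None of the 6 terminal pathway genes passed the test, and their median log2 fold change was -0.42. All 6 had every CSF1-Fc liver below both PBS livers, as had 29.3% of all genes and 33.1% to 42.7% of other genes with rows as bright. *Hc* encodes C5, whose cleavage starts the pore. It read 12.11 and 12.22 in the PBS controls and 11.75, 11.52 and 11.95 in the CSF1-Fc group (log2 fold change -0.42, 95% interval -0.82 to -0.03). *C6*, for the next component, read 11.05 and 11.14 against 10.72, 10.43 and 10.87 (-0.42, interval -0.82 to -0.02). *C9*, whose product lines the pore, read 11.97 and 12.01 against 11.78, 11.32 and 11.66 (-0.40, interval -0.82 to 0.01). Their limma adjusted p-values were 0.187, 0.193 and 0.224.

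The C8 protein is built of 3 chains encoded by *C8a*, *C8b* and *C8g*. *C8b* stood at 12.26 and 12.35 with PBS and at 11.81, 11.67 and 12 with CSF1-Fc (log2 fold change -0.48, 95% interval -0.83 to -0.12). *C8a*, its neighbour in the genome, stood at 11.64 and 11.81 with PBS and at 11.31, 10.98 and 11.62 with CSF1-Fc (-0.42, interval -0.92 to 0.08). *C8g* stood at 12.56 and 12.53 with PBS and at 12.29, 12.31 and 12.21 with CSF1-Fc (-0.27, interval -0.57 to 0.02). The 3 intervals overlap. The log2 ratio of *C8b* to *C8g* changed by -0.20, a pair chosen after the values were seen, and its groups overlapped. An exact permutation test gave a two-sided p = 0.4. With 2 against 3 livers it cannot go below 0.2, so it cannot decide whether the ratio changed. Treated livers spanned 0.10 log2 units for *C8g* and 0.64 for *C8a*.

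The inhibitors that act in plasma had overlapping groups. *Cfi*, for the protease factor I that cleaves C3b and C4b, was at 11.69 and 11.83 in control livers and at 11.52, 11.01 and 11.75 in treated livers (log2 fold change -0.33, 95% interval -0.88 to 0.22). *C4bp*, for the C4b-binding protein, was at 11.51 and 11.48 with PBS and at 11.38, 11.06 and 11.60 with CSF1-Fc (-0.15, interval -0.59 to 0.30).

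**Figure D2:**
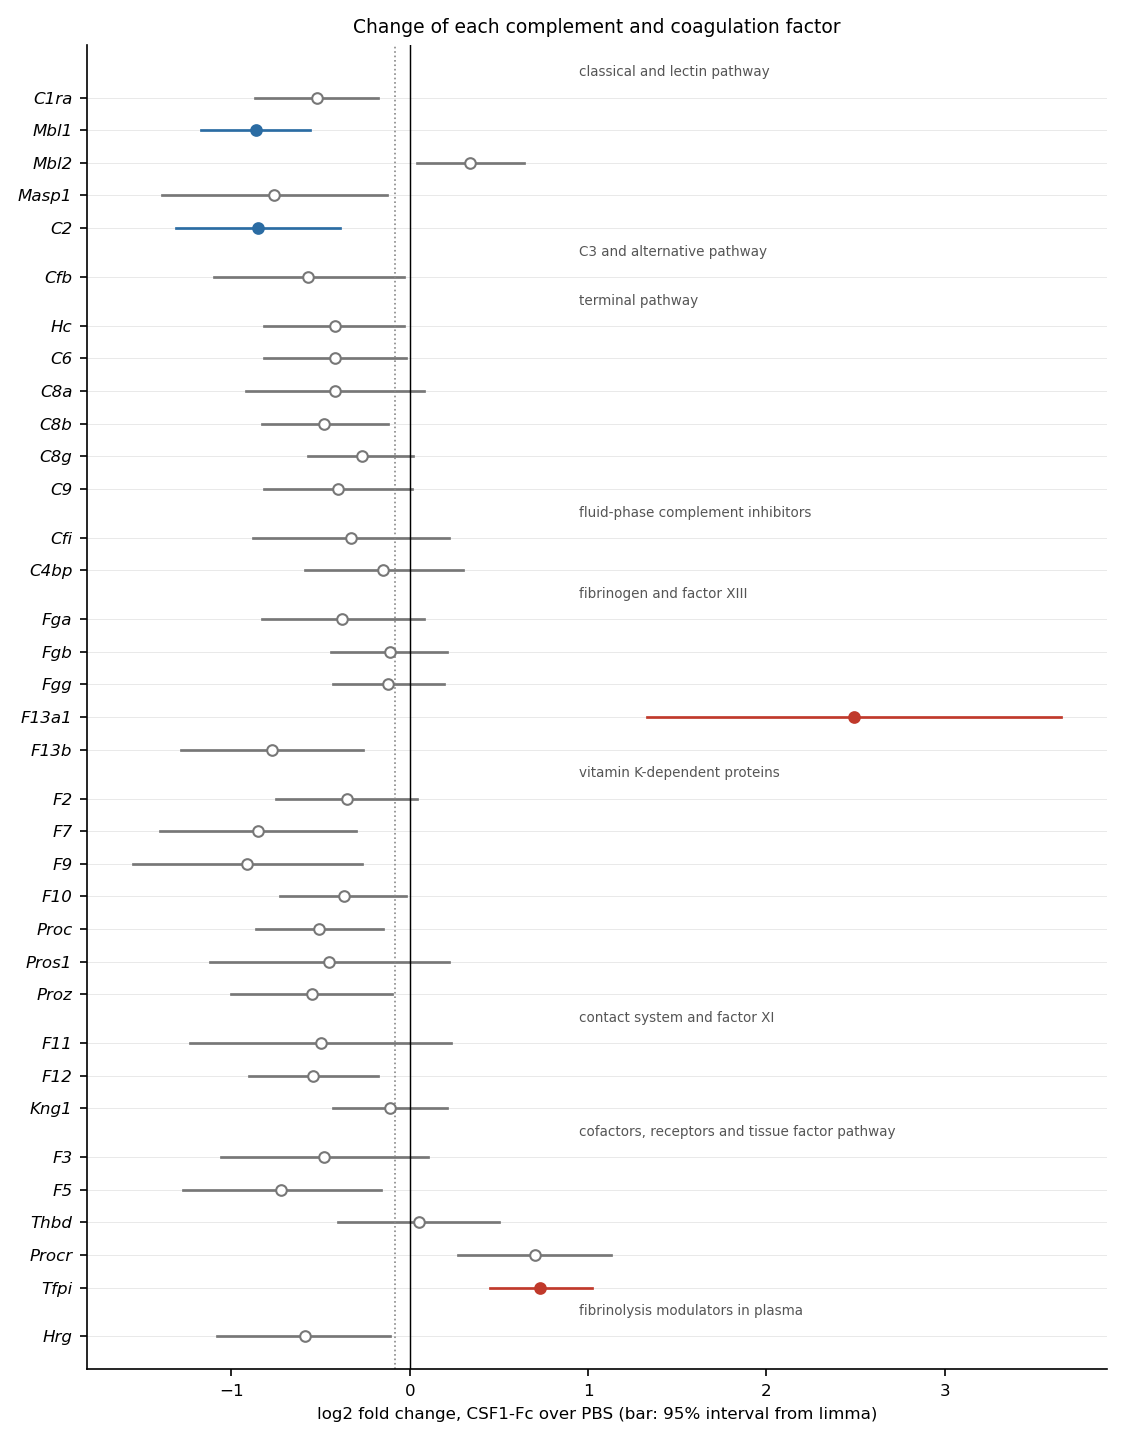
Log2 fold change (CSF1-Fc over PBS, horizontal axis) of each complement and coagulation gene with its 95% interval from limma. Filled points are the 4 genes past the threshold (red higher, blue lower), open points the 31 that did not pass, the solid line is 0 and the dotted line the median of all genes (-0.08).

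Among the clotting genes the largest change was that of *F13a1*, the gene of the factor XIII A subunit, the transglutaminase that cross-links fibrin. Its log2 intensity was 4.39 and 4.62 in the PBS controls and 7.65, 5.97 and 7.37 in the CSF1-Fc group. All treated livers were higher than the controls, and they lay 1.69 log2 units apart, the widest spread of the 35 genes. *F13a1* rose 5.62-fold (log2 fold change 2.49, standard error 0.48, 95% interval 1.33 to 3.65, limma adjusted p = 0.0268). The row was dim in PBS livers (mean 4.51), so the size of the change is uncertain. The call was lost when any replicate other than CSF1-Fc replicate 2 was left out, with adjusted p-values of 0.0613 to 0.143. The macrophage and monocyte markers given above rose in the same livers. Of 9 megakaryocyte and platelet markers, *Pf4*, *Clec1b* and *Ppbp* rose and the other 6 did not pass. The median log2 fold change of the 9 was 0.10, and the 6 that did not pass ran from -0.37 to 0.11. Summed over the 9, the level was 8.94 to 9.14 in PBS livers and 10.56 to 10.90 in CSF1-Fc livers. The brightest of the 9 rows in CSF1-Fc livers were those of *Clec1b* (mean log2 intensity 9.78) and *Pf4* (8.65), which weigh most in that sum. The part of these cell types in the *F13a1* change was not tested.

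*F13b*, for the carrier subunit of factor XIII, did not pass the test, and its value had the opposite sign. It was at 9.95 and 10.21 with PBS and at 9.17, 9.08 and 9.68 with CSF1-Fc, without overlap and below the controls (log2 fold change -0.77, standard error 0.21, limma adjusted p = 0.084). The change of the log2 ratio of *F13a1* to *F13b* was 3.26, a comparison also chosen after the values were seen. It rests on the dim *F13a1* row of the PBS livers. The exact permutation p was 0.2 (two-sided), the smallest this test can give with 2 against 3 livers, so it cannot decide whether the ratio changed.

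Fibrinogen is a hexamer of paired alpha, beta and gamma chains, whose genes *Fga*, *Fgb* and *Fgg* lie side by side. *Fgb* read 12.82 and 12.86 in control livers and 12.78, 12.58 and 12.82 in treated livers. *Fgg* read 12.93 and 12.92 with PBS and 12.84, 12.69 and 12.88 with CSF1-Fc. Their log2 fold changes were -0.11 (95% interval -0.44 to 0.21) and -0.12 (interval -0.43 to 0.19), and both were 0.07 when arrays were centred on other liver secreted proteins, which also turned *Kng1* (0.08) and *C4bp* (0.04) above 0. *Fga* read 11.14 and 10.99 with PBS and 10.76, 10.38 and 10.91 with CSF1-Fc, a log2 fold change of -0.38 (interval -0.83 to 0.08). A second, dimmer row of *Fga* had a fold change of -0.78 (standard error 0.26, limma adjusted p = 0.13). No fibrinogen chain passed the test.

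The 250 bases upstream of each chain are printed because the chains form 1 protein and are known acute phase genes driven by C/EBP and STAT3 factors. They come from RefSeq (GRCm38.p6), Fga at chr3:83025903-83026152 on the plus strand, Fgb at chr3:83049864-83050113 on the minus strand and Fgg at chr3:83007474-83007723 on the plus strand. Capitals mark matches to TTGCNNAA (C/EBP) or TTCNNNGAA (STAT3) on either strand.
Fga: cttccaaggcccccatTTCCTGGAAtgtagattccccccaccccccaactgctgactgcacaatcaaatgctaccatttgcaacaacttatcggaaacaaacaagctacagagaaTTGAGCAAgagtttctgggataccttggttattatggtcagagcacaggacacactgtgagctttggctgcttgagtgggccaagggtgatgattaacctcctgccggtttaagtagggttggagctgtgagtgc
Fgb: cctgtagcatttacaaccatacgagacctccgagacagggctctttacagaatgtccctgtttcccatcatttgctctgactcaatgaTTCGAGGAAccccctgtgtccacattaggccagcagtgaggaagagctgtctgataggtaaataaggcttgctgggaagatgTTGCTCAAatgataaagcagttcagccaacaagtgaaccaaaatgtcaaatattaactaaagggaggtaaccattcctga
Fgg: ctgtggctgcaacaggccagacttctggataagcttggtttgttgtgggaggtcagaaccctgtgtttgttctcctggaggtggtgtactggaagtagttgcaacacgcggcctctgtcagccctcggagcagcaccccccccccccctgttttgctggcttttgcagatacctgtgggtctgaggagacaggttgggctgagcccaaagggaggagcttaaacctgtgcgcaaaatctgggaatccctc
*Fga* and *Fgb* held a match to each motif, and *Fgg* held none in this window.

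Vitamin K-dependent proteins bind calcium through modified glutamates and include thrombin, the factors that make it and the protein C system. Of these 7 genes, 0 passed the test, and the median log2 fold change was -0.51. Every treated liver lay below both controls for 6 of them, as for 29.3% of all genes and for 33.1% to 40.1% of other genes with rows as bright. *F9*, for factor IX, the protein missing in haemophilia B, had the lowest fold change of the 35 genes. It stood at 10.57 and 10.61 in the PBS controls and at 9.85, 9.16 and 10.04 in the CSF1-Fc group (-0.91, standard error 0.26, limma adjusted p = 0.098). *F7*, for factor VII, the partner of tissue factor, stood at 9.38 and 9.74 with PBS and at 8.74, 8.36 and 9.03 with CSF1-Fc (-0.85, standard error 0.23, adjusted p = 0.0762).

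*F10* and *Proz* follow *F7* in the genome and encode factor X, which activates prothrombin, and protein Z, a cofactor in the inhibition of factor X. *F10* read 10.69 and 10.86 with PBS and 10.40, 10.25 and 10.54 with CSF1-Fc (log2 fold change -0.37, 95% interval -0.73 to -0.02). *Proz* read 10.48 and 10.69 with PBS and 10.03, 9.78 and 10.30 with CSF1-Fc (-0.55, interval -1.0 to -0.10). *F2*, the prothrombin gene, read 12.28 and 12.43 with PBS and 12.02, 11.79 and 12.20 with CSF1-Fc (-0.35, interval -0.75 to 0.04). None of these overlapped between the groups.

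*Proc* and *Pros1* encode the anticoagulant protein C and its cofactor protein S. *Proc* was at 10.86 and 11.11 in control livers and at 10.44, 10.40 and 10.61 in treated livers (log2 fold change -0.51, standard error 0.15, limma adjusted p = 0.0958). *Pros1* was at 8.74 and 8.51 with PBS and at 8.13, 7.72 and 8.67 with CSF1-Fc, and its groups overlapped (-0.45, standard error 0.28, adjusted p = 0.401).

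Contact system genes did not pass the test either. *F12*, for factor XII, the protease that starts contact activation, stood at 11.35 and 11.44 in the PBS controls and at 10.79, 10.73 and 11.05 in the CSF1-Fc group, without overlap (log2 fold change -0.54, standard error 0.15, limma adjusted p = 0.082). *F11*, for factor XI, stood at 8.80 and 9.58 with PBS and at 8.51, 8.44 and 9.12 with CSF1-Fc (-0.50, standard error 0.30, adjusted p = 0.392). Its controls differed by 0.78 log2 units, the widest gap between the PBS livers among the 35 genes. *Kng1*, for kininogen, the source of bradykinin, stood at 12.67 and 12.63 with PBS and at 12.49, 12.46 and 12.68 with CSF1-Fc (-0.11, 95% interval -0.43 to 0.21).

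Of the cofactors and regulators that sit on cells, 1 passed the test. *Tfpi*, for the tissue factor pathway inhibitor, which blocks factor VII and factor X at the start of clotting, read 6.80 and 6.73 with PBS and 7.49, 7.49 and 7.52 with CSF1-Fc. The treated livers lay within 0.03 log2 units and all lay above the controls. *Tfpi* rose 1.66-fold (log2 fold change 0.73, standard error 0.12, limma adjusted p = 0.0144). The call was lost without either PBS replicate (adjusted p = 0.0974 and 0.144) or without CSF1-Fc replicate 1 (0.0713), and with the replicate number as a block (0.0777).

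*Procr* encodes the endothelial protein C receptor, which presents protein C for activation. It stood at 5.40 and 5.38 in control livers and at 6.00, 6.38 and 5.89 in treated livers, without overlap, and did not pass the test (log2 fold change 0.70, standard error 0.18, limma adjusted p = 0.0654). *Thbd*, for thrombomodulin, the thrombin receptor that works beside it, stood at 5.61 and 6.03 with PBS and at 5.96, 5.66 and 6.00 with CSF1-Fc (0.05, 95% interval -0.40 to 0.50). *F3*, the tissue factor gene, stood at 6.97 and 6.24 with PBS and at 5.92, 6.16 and 6.28 with CSF1-Fc (-0.48, interval -1.06 to 0.10). Both sets of groups overlapped. Of 16 liver endothelial markers, 1 rose (*Cdh5*, 1.38) and 1 fell (*Clec4g*, -0.74), with a summed level of 12.60 to 12.74 in PBS livers and 12.51 to 12.71 in CSF1-Fc livers, and their part in the *Tfpi* and *Procr* values was not tested.

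*F5* encodes factor V, the plasma cofactor of factor X. It read 11.03 and 11.25 in the PBS controls and 10.23, 10.19 and 10.85 in the CSF1-Fc group (log2 fold change -0.72, standard error 0.23, limma adjusted p = 0.123). *Hrg*, for histidine-rich glycoprotein, a plasma protein that binds plasminogen and heparin, read 11.99 and 11.97 with PBS and 11.46, 11.04 and 11.66 with CSF1-Fc (-0.59, standard error 0.20, adjusted p = 0.139). All treated livers lay below the controls for both genes.

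The treated mice differed among themselves in a shared order. CSF1-Fc replicate 2 was the lowest of the 3 treated livers for 29 of the 35 genes and replicate 3 the highest for 28. Relative to the mean of the PBS livers, the median deviation over the 35 genes was -0.42 in CSF1-Fc replicate 1, -0.66 in replicate 2 and -0.22 in replicate 3, against -0.04 and 0.04 in the PBS livers. Over all genes the same medians were -0.04, -0.06 and -0.11. The 3 treated livers spanned a median of 0.46 log2 units per gene, and the 2 PBS livers lay a median of 0.15 apart. A range over 3 livers tends to exceed a gap between 2, so these medians do not compare the spread of the groups. Of the 31 genes that did not pass, 15 had a 95% interval wholly below 0, 2 wholly above 0 and 14 that held 0. For 19 of them the interval lay within 1 log2 unit of 0 on either side.

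**Figure D3:**
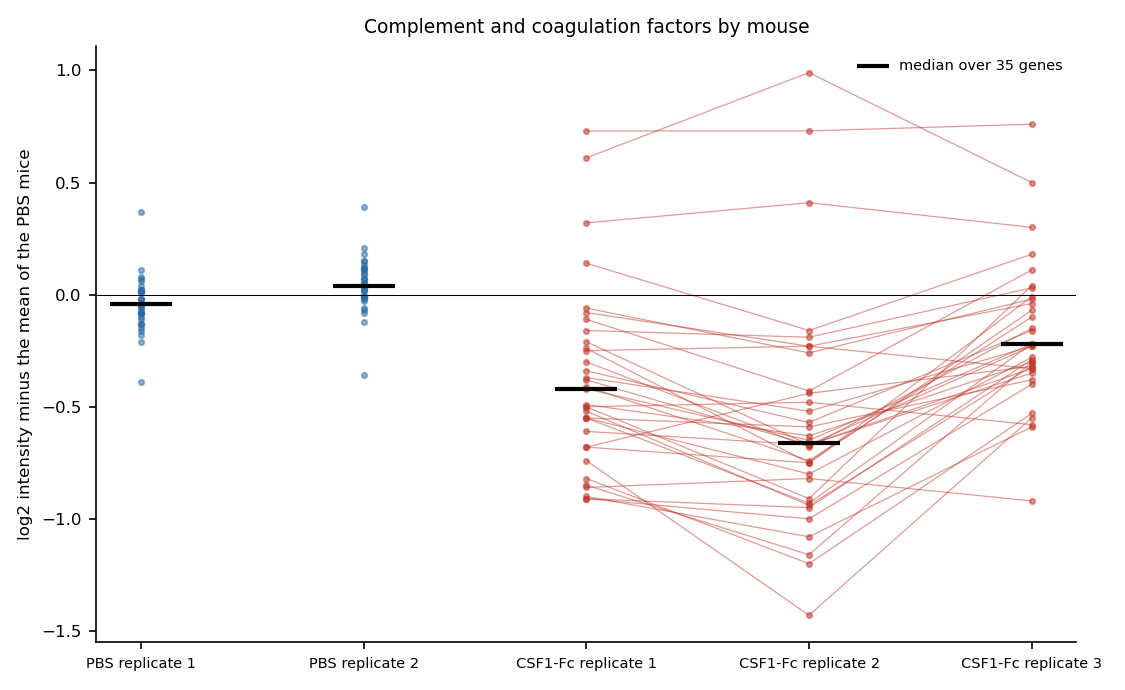
Log2 intensity minus the mean of the PBS livers (vertical axis) for the complement and coagulation genes in each of the 5 mice, with thin lines joining the same gene across the CSF1-Fc livers and black bars for the median over all 35 genes (*F13a1* lies above the axis and is not drawn). The medians are -0.42, -0.66 and -0.22 in the CSF1-Fc livers and near 0 in the PBS livers.

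The genes were also set out by row brightness, the mean log2 intensity over the 5 arrays. It depends on the probes as well as on the transcript, so it orders rows and not transcript levels. The 6 brightest genes (12 and over: *C8b*, *C8g*, *F2*, *Fgb*, *Fgg* and *Kng1*) had fold changes from -0.48 to -0.11, with a median of -0.20. The median was -0.42 for 8 genes between 11 and 12, -0.55 for 9 between 10 and 11 and -0.63 for 6 between 8 and 10. Other genes in these ranges had medians of -0.02, -0.15, -0.09 and -0.10, and every treated liver lay below both controls for 33.1%, 42.7%, 40.1% and 37.7% of them. They were called lower in 0.826%, 7.12%, 11.7% and 9.71%, against 3.95% of genes of all brightnesses. For the 6 genes below 8 (*C1ra*, *F13a1*, *F3*, *Procr*, *Tfpi* and *Thbd*) the median was 0.38, against -0.07 for other genes. These are descriptions without a test.

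**Figure D4:**
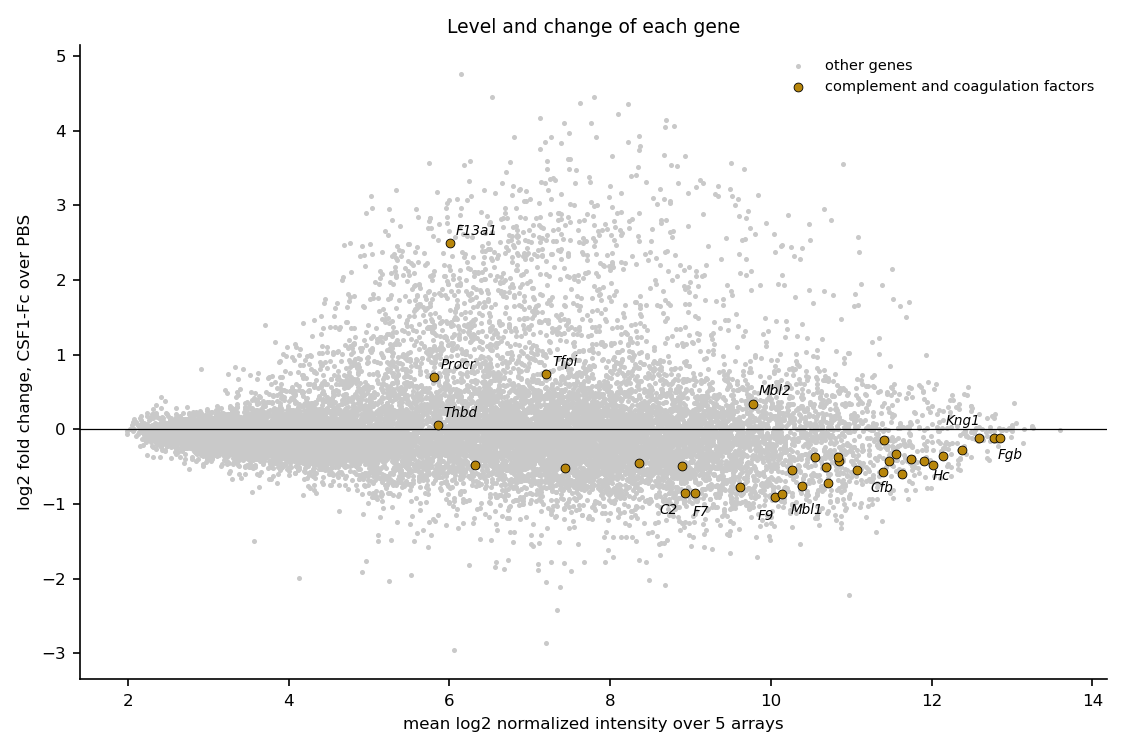
Mean log2 normalized intensity over the 5 arrays (horizontal axis) against log2 fold change, CSF1-Fc over PBS (vertical axis), with gold points for the 35 complement and coagulation genes and grey points for all other genes. The gold points lie between -0.91 and 2.49, with 30 of them below 0.

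A second list of complement genes mixed receptors and products of macrophages with further plasma proteins of the liver. Of its 28 genes measured, 9 rose and 2 fell, with a median log2 fold change of -0.13. None of the liver plasma proteins *C1s1*, *C1rl*, *C4a*, *Cfhr2*, *Serping1*, *Vtn*, *Clu*, *Cpn1* and *Cpn2* (chosen after their values were seen) passed the test. Their values ran from -0.69 to -0.15. Every treated liver lay below both controls for each, as for 29.3% of all genes and 26.5% to 42.7% of other genes with rows as bright. Those that rose included *Cfp*, for properdin, which stabilises the alternative pathway convertase (2.53, standard error 0.12, limma adjusted p = 0.000357), and *C1qc*, for a chain of C1q, the antibody sensor of the classical pathway (2.38, standard error 0.17, adjusted p = 0.0006). The receptors *Itgam* (2.52, adjusted p = 0.00228) and *C3ar1* (2.39, adjusted p = 0.000485) rose too. *Cd59b*, for an inhibitor of the pore, fell by 1.16 on the log2 scale (limma adjusted p = 0.00532) and was chosen after its values were seen. *Colec11*, for a lectin that starts the lectin pathway, fell by 0.58 on that scale, just past the threshold (limma adjusted p = 0.0493). *C1ra*, whose product works beside C1q, had -0.52 in the same livers.

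Of 35 other coagulation and fibrinolysis genes, 5 rose and 2 fell, with a median of -0.15. *Plau*, for the plasminogen activator urokinase, and *Plaur*, for its receptor, rose by log2 fold changes of 2.65 and 1.66 (limma adjusted p = 0.000628 and 0.000692). *Fgl2*, for a prothrombin-cleaving protein of macrophages and endothelium, and *Anxa2*, for a plasminogen receptor, rose by 2.20 and 1.85. *F8*, for factor VIII, the cofactor of factor IX, fell by 1.04 on the log2 scale (adjusted p = 0.0114), and *Tfpi2* fell by 0.61 (adjusted p = 0.0385). *F8* and *Tfpi2* were named after their values were seen.

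Genes for the maturation and control of these proteins were counted too. Of 15 genes of vitamin K recycling and processing in the endoplasmic reticulum, *Tpst2*, a tyrosine sulfotransferase, rose (log2 fold change 0.64), *Pcsk6*, a proprotein convertase, fell (-1.07), and 13 did not pass. Among 25 regulators of hepatocyte plasma protein genes, *Il6* rose (0.91, with a dim mean of 3.33 in PBS livers) and 5 fell. The falls included *Creb3l3* (-1.0), *Il1r1* (-0.97) and *Nr1i2* (-0.85). Regulators that fell numbered 1 with secreted protein centring, with the replicate number as a block, or without CSF1-Fc replicate 1 or 2. They numbered 0 without moderation and 10 with array weights. Without moderation or without CSF1-Fc replicate 1, 0 regulators rose. Of 23 other acute phase genes, *Il1rn* rose (1.60) and 0 fell, but 5 rose and 0 fell without PBS replicate 1, and 0 rose and 2 fell without PBS replicate 2. Of 29 other liver secreted proteins, 0 rose and *Igfals* fell (-0.92), with a median of -0.12 beside -0.42 for the complement and coagulation genes. The median was -0.44 for the hepatocyte markers and -0.41 for the regulators. These lists were not matched for row brightness. Stellate cell markers (12) had 1 higher and 2 lower, cholangiocyte markers (6) 0 and 0, and adipocyte markers (7) 1 and 1.

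**Figure D5:**
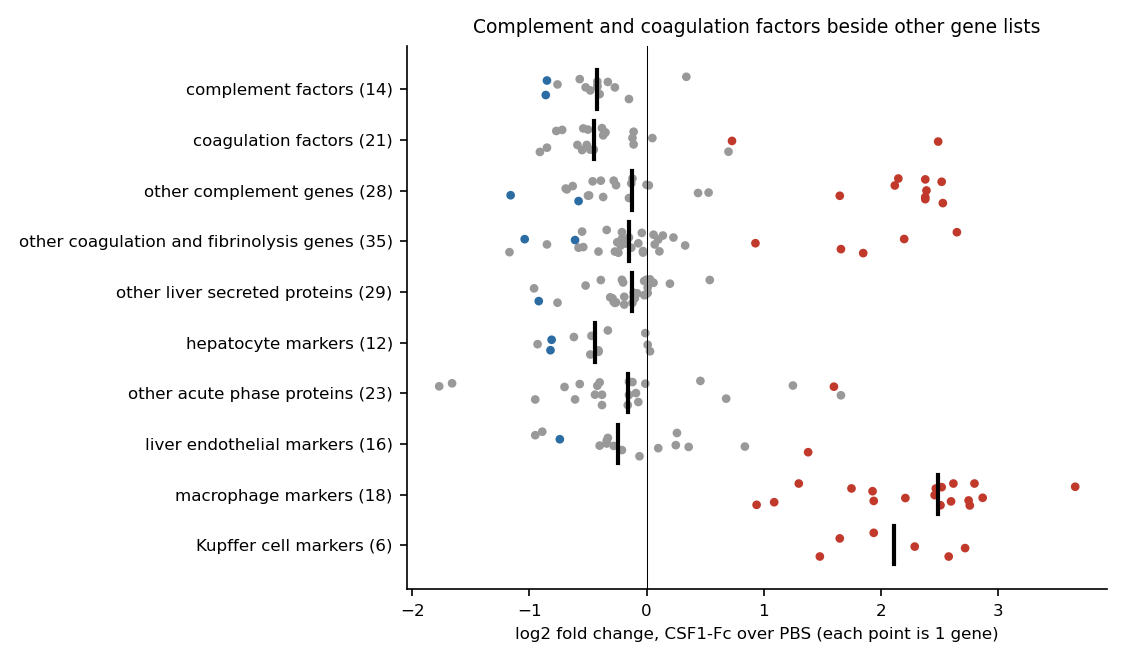
Log2 fold change (CSF1-Fc over PBS, horizontal axis) of each gene in the lists named on the vertical axis, with red points for genes that rose, blue for genes that fell and grey for those that did not pass, and a black bar at each median. The complement and coagulation factors have medians of -0.42 and -0.45, and all macrophage and Kupffer cell markers lie to the right of 0.

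Sequence motifs of liver factors were searched on both strands of the 250 bases upstream of 33 of the 41 genes and of 27025 genes in the same RefSeq table. TTGCNNAA was in 9 of the 33 (27.3%) and in 10.8% of all genes, and TTCNNNGAA in 6 (18.2%) and 8.13%. The stricter TTCCNGGAA, each match of which is also a match to TTCNNNGAA, was in *Fga* and *Pros1* (6.06%, against 1.09%). The core of the HNF1 palindrome was in *F13b* and *Hc* (6.06%, against 0.152%). The whole HNF1 palindrome, CAAAGTCCA (HNF4) and TTGCGCAA were in 0 of the 33, against 0.0111%, 0.451% and 0.185% of all genes. These are shares of genes with at least 1 exact match, and they say nothing of which factors bind. Of the 33 genes, 28 had a value on the array, and *C3*, *Klkb1* and *Masp2*, each with a match, had none.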

How the data were processed

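Liver RNA of 2 PBS and 3 CSF1-Fc mice was amplified with the Nugen Pico SL kit, biotin labelled and hybridised to 1 array per mouse. The study's figure legend gives n = 3 for livers with and without CSF1-Fc, while the data used here hold 2 PBS arrays. The extraction reagent is Trizol in the labels and RNA Bee in the study's methods. The authors deposited 1 normalized intensity, on a linear scale, per array for each of 35556 transcripts (rows). Their named tools are Partek Genomics Suite and, for quality control, Expression Console (1.1 in the submitters' processing notes). The background correction, the normalization between arrays, the summarisation and the genome build were not given in the sources used here, and the effect of these steps is unknown.

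Log2 of each intensity was taken with no pseudocount and no filter and the fit used limma (3.58.1, under R 4.3.3; lmFit with 1 mean per group, then eBayes). The Benjamini-Hochberg adjustment ran over all rows (threshold 0.05), with 3 residual and 3.34 prior degrees of freedom. Genes were named from the platform annotation in rows with 1 symbol (21218 rows; 1881 had several and 12457 none), using the brightest row where a gene had several (1386 genes). All 41 genes were named. From every other list, the 4 largest changes past the threshold were eligible to be named, and other genes are said to be chosen after their values were seen. The genes and lists were chosen with earlier results of these data known. Replicate numbers do not name litters or batches, so an effect of litter or batch cannot be told apart from that of treatment. The p-values set the group difference against the variation between mice within groups, moderated over all rows. The script was tested on simulated data. Arrays have no depth, and their number limits the precision. Identity of vitamin K-dependent proteins was planned and not run, since no protein sequences were used here.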

Additional observations from a re-analysis of the deposited data

How the results depend on the processing

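With 2 and 3 mice, single calls were fragile, and no called gene changed direction. Over 15 alternatives for each of the 35 genes (525 values), 452 kept their direction and side of the threshold, 44 gained a call, 21 lost one, 8 values of uncalled genes changed sign and no called value did. The sign changes were those of *C4bp* (0.04), *Fgb* (0.07), *Fgg* (0.07) and *Kng1* (0.08) with arrays centred on liver secreted proteins, which moved the median of all genes from -0.08 to 0.11, and of *Thbd* (-0.16 to -0.01) in 4 settings. The median over the 35 genes stayed between -0.53 and -0.24. Of these genes, 2 rose and 2 fell with array median centring, quantile normalization, and trend and robust moderation. The counts were 3 and 15 with array weights (4.19 for CSF1-Fc replicate 1, 0.432 to 1.08 for the others), 3 and 1 with secreted protein centring, 3 and 4 without the dim rows, 3 and 11 with the mean over rows, 3 and 9 over rows with 1 symbol, 1 and 0 without moderation, 3 and 8 at an adjusted p under 0.1 and 4 and 17 at an unadjusted p under 0.05. Leaving out each mouse in turn gave 0 to 2 that rose and 0 to 7 that fell, with 0 and 0 when either PBS mouse or CSF1-Fc replicate 1 was absent. Dropping CSF1-Fc replicate 2 gave 2 and 1, and dropping replicate 3 of that group gave 2 and 7. Without moderation *Mbl1* (limma adjusted p = 0.0503), *C2* (0.215) and *F13a1* (0.232) lost their calls.

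The labels number the mice of both groups, but livers of the same number did not deviate together (r = -0.0725 and -0.249 over rows, for 2 pairs). With the replicate number as a block, 1 of the 35 genes rose and 2 fell, *Mbl1* (0.0582) and *C2* (0.0554) lost their calls and *F13b* (0.0498) and *F5* (0.048) gained one, and other complement and other coagulation genes that fell numbered 1 and 1.

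Other complement genes that fell (2) numbered 8 with array weights, 1 with secreted protein centring, 5 without the dim rows, 8 with the mean over rows, 0 without moderation, 5 with quantile normalization, 7 over rows with 1 symbol, 1 with trend and robust moderation, 7 and 8 at the looser thresholds, and 0 to 3 without 1 mouse. Other coagulation genes that fell (2) numbered 5, 1, 5, 5 and 0 in the first 5 of these settings, 5 over rows with 1 symbol, 5 and 6 at the looser thresholds, and 0 to 1 without 1 mouse. Without moderation 5 other complement and 2 other coagulation genes rose. The cause of these shifts was not tested.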
